A study of Rattus norvegicus with 18 samples.

Results

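The serine/threonine phosphatases of the PPP family were followed in rat testis as 40 RefSeq transcripts of 39 genes, out of 7016 transcripts in the expression table. Members were all transcripts whose accession maps to a rat symbol that begins with Ppp and a digit from 1 to 6, without regard to their values. They comprise 11 catalytic subunit transcripts, 16 regulators or inhibitors of protein phosphatase 1 (PP1), 10 transcripts for PP2A scaffold and targeting subunits, both calcineurin B genes and 1 PP4 regulator. The RefSeq gene table holds 83 protein-coding symbols of this form, and those without a row were not analysed here. The libraries came from testes of Wistar rats aged 8 weeks, either subjected to chronic sleep restriction (CSR) or kept as controls, with 3 libraries in each group. How sleep was restricted is not given in the sources used here, and no label ties a library to an animal of its own. The p-values therefore describe only how these libraries vary, which may be technical.

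PPP phosphatases remove phosphate from serine and threonine. A small set of catalytic subunits is shared among many regulatory subunits, and the partner decides where the enzyme acts and on what. PP1 is steered by a large group of unrelated regulators, PP2A is built from a scaffold A subunit, a catalytic C subunit and 1 of several B-type subunits, and calcineurin (PP3) joins a catalytic A subunit to a calcium-binding B subunit. In male germ cells, the PP1 gamma gene is needed for normal sperm in mice, and mouse sperm carry a calcineurin made of the gamma catalytic subunit and a second calcineurin B, encoded by *Ppp3cc* and *Ppp3r2*, which is needed for normal sperm motility.

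Values are FPKM, which scale the fragments of a transcript by its length and by the mapped fragments of the library, so that levels can be set side by side between transcripts. The depth of the libraries is unknown. Median values over all transcripts lay between 3.69 and 3.97 FPKM in CSR libraries and between 3.81 and 3.97 FPKM in control libraries. Testis identity was checked on markers: the elongating spermatid gene *Tnp1* lay between 3903 and 7730 FPKM, and *Sox9* of Sertoli cells lay between 2.91 and 3.86 FPKM. The summed level of 6 elongating spermatid markers was 14436, 17923 and 16787 FPKM in CSR libraries 1 to 3, against 9560, 10238 and 16633 FPKM in control libraries 1 to 3. All 6 had a higher mean in CSR and 1 of 6 had an unadjusted p under 0.05 by limma, but they did not move together. *Prm1*, a protamine, read 3029, 2572 and 968 FPKM in CSR, against 0.0934, 0.0981 and 877 FPKM in control, and *Prm2* was likewise below 1 FPKM in control libraries 1 and 2 alone. For *Tnp1*, CSR library 1 lay below every control library. Of 3 listed macrophage markers only *Cd68* had a row, and it was below 1 FPKM in every library. The blood marker *Hba-a1* read 3.02, 17.5 and 25.5 FPKM in CSR and 5.32, 27.4 and 28.9 FPKM in control. The other blood marker, *Hbb*, was listed at 0 in all libraries but CSR library 2, which read 2.53 FPKM. Of 23 tested markers, limma called 1, the peritubular cell gene *Col1a1*. It was listed at 0 in every CSR library and read 2.30, 2.14 and 2.73 FPKM in control libraries 1 to 3. Its log2 difference was -1.76 with an adjusted p of 0.0421 by limma, and a listed 0 may stand for a failed estimate. The peritubular marker *Myh11* was higher in every CSR library, with a log2 difference of 0.32 and an adjusted p of 0.372 by limma. In such bulk tissue, fewer cells of a type and less RNA per cell cannot be told apart.

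The members with a row lay at a higher level than the table as a whole. Their median transcript had a mean of 7.93 FPKM over the 6 libraries, against 3.995 FPKM for all transcripts in the table. Of the 40, 11 averaged 20 FPKM or more, 15 lay between 5 and 20 FPKM and 14 lay below 5 FPKM. The order was led by *Ppp1cc*, followed by *Ppp3r2*, *Ppp2r3c*, *Ppp1r2* and *Ppp1r36*. At the low end stood *Ppp3ca*, *Ppp1r16b*, *Ppp2r5a*, *Ppp2r3a* and *Ppp2r5c*, each with a mean under 1 FPKM.

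**Figure D1:**
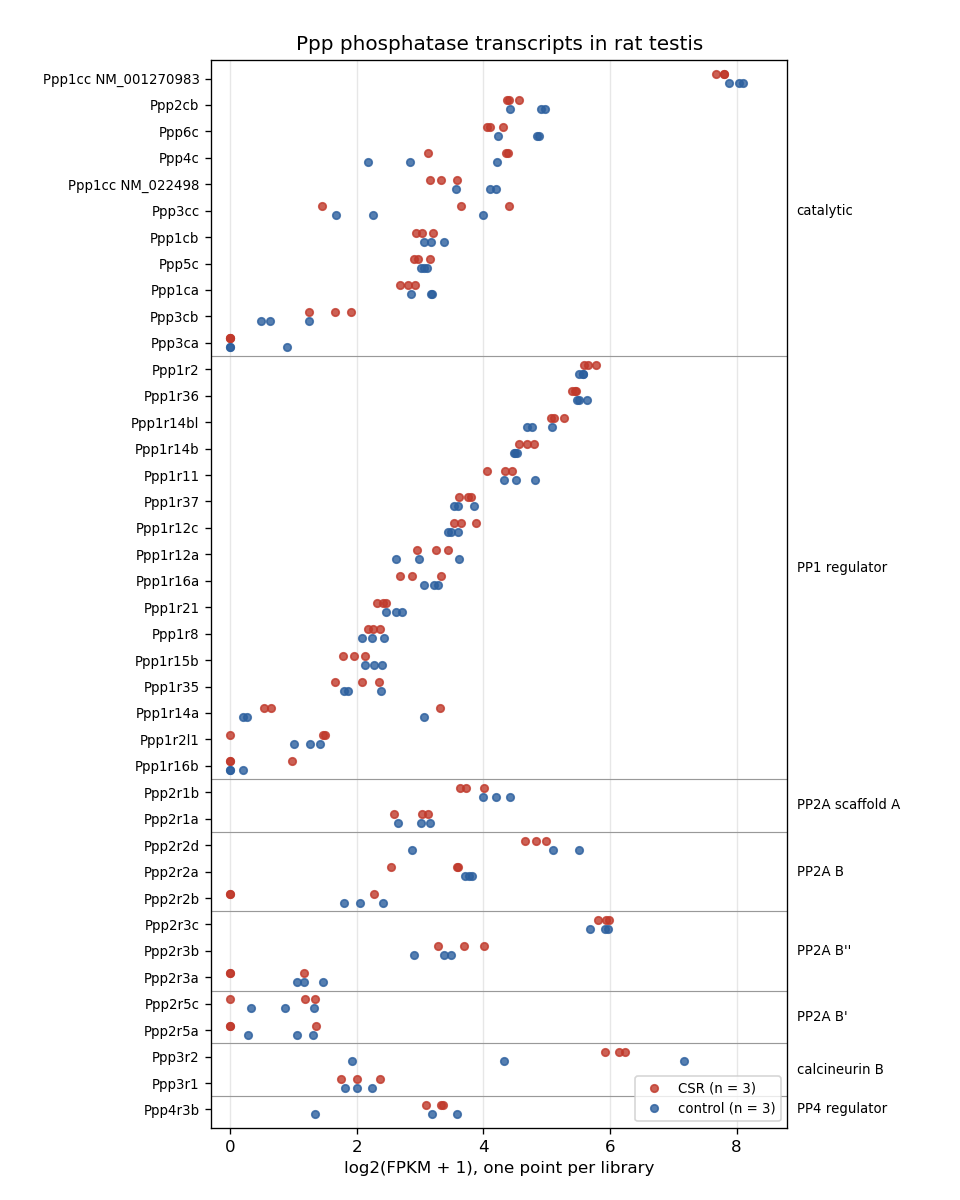
Level of each of the 40 Ppp transcripts as log2(FPKM + 1) on the horizontal axis, 1 point per library, with CSR in red above control in blue and transcripts grouped by role and ordered by mean within a role. *Ppp1cc* NM_001270983 stands apart at the right, and *Ppp3r2*, *Ppp3cc*, *Ppp2r2d* and *Ppp1r14a* show points of 1 group far apart.

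No member was called changed by sleep restriction. Of the 40 transcripts, 37 had at least 1 FPKM in at least 3 libraries and were tested together with all others by limma on log2(FPKM + 1), and 0 of these 37 passed an adjusted p of 0.05 (Benjamini-Hochberg over 5657 transcripts). The background was 0.442% of all tested transcripts. The smallest adjusted p among members was 0.363 by limma. At an unadjusted p under 0.05 stood 5 of 37 members, or 13.5%, which is close to the 13.2% of all tested transcripts. Of these, 4 were lower in CSR (10.8%, against 7.32% of all) and 1 was higher (2.70%, against 5.90% of all). The groups did not overlap in 8 of 37 members, or 21.6%, against 21.5% of all. In 5 of them CSR was lower (13.5%, against 12.6%) and in 3 it was higher (8.11%, against 8.96%). Log2 fold changes were negative in 19 and positive in 18 members, against 56.0% negative among all transcripts, with a median of -0.03 for the members and -0.06 for all.

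**Figure D2:**
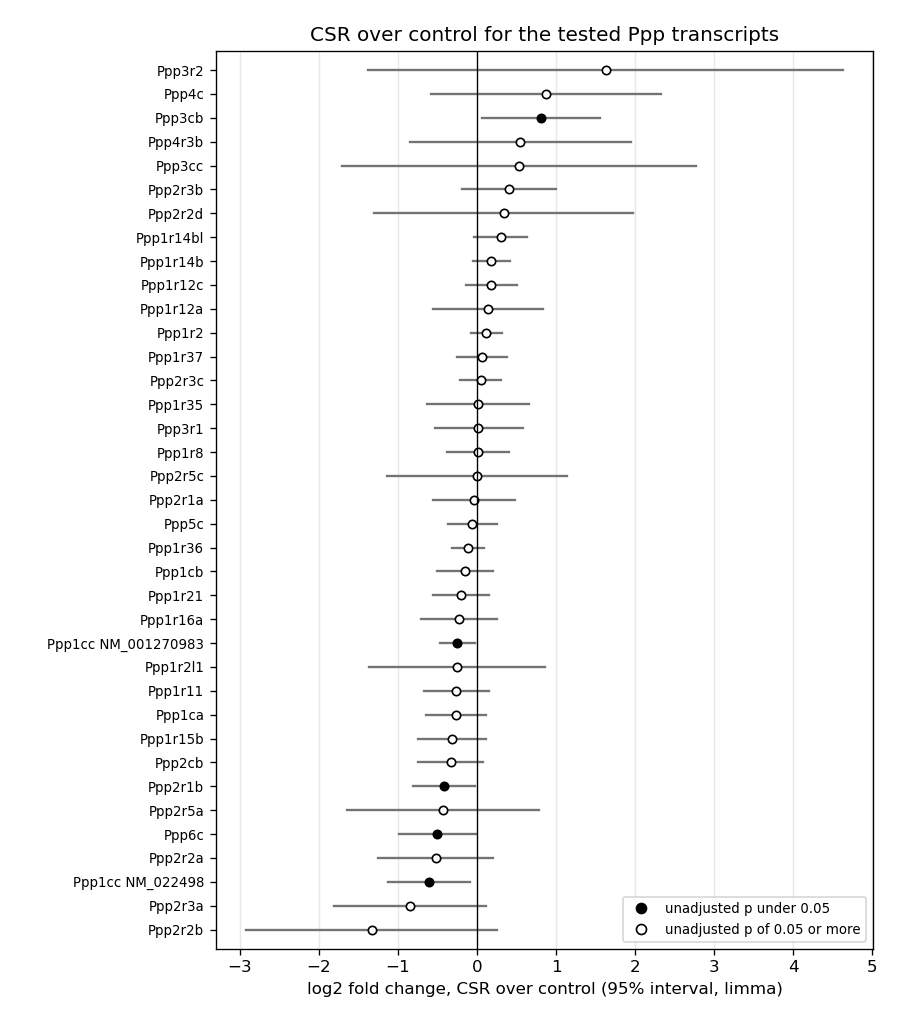
Log2 fold change of CSR over control, on the log2(FPKM + 1) scale, for the 37 tested Ppp transcripts, with 95% intervals from limma. Filled points mark the 5 members with an unadjusted p under 0.05, of which 4 lie below 0 and *Ppp3cb* lies above it, and none of which passed after adjustment.

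PP1 has its catalytic subunits encoded by *Ppp1ca*, *Ppp1cb* and *Ppp1cc* (alpha, beta and gamma), and in this tissue the gamma gene dominated. Its transcript NM_001270983 read 223, 223 and 204 FPKM in CSR libraries 1 to 3, against 262, 274 and 236 FPKM in control libraries 1 to 3. All CSR values lay below all control values, with control library 3 the closest to CSR. The means were 216 ± 11.2 FPKM in CSR and 257 ± 19.4 FPKM in control (SD, n = 3 each), a log2 difference of -0.25 with a 95% interval of -0.47 to -0.02, and limma gave an adjusted p of 0.367. This transcript stood at the 99.1 percentile of mean level among all transcripts in the table.

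The other *Ppp1cc* transcript, NM_022498, was far lower. It read 11.0, 9.04 and 7.90 FPKM in CSR libraries, against 17.4, 16.3 and 10.9 FPKM in control libraries. The groups touched, because control library 3 lay just under the highest CSR library. Its log2 difference was -0.61 with an interval of -1.12 to -0.09, the adjusted p by limma was 0.363, and how the authors' estimation divided reads between both transcripts of the gene is uncertain. The gene is known to make a widely expressed and a testis-enriched splice form, and which accession encodes which is not given in the sources used here.

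NM_022498 made up 4.11 ± 0.51% of the gene's summed FPKM in CSR and 5.43 ± 0.938% in control, a difference of -1.32 percentage points (n = 3 each, two-sided exact permutation p = 0.20, where the smallest p that 20 assignments allow is 0.10). Among the 3 PP1 catalytic genes, *Ppp1cc* held 94.4 ± 0.181% of the summed FPKM in CSR and 94.5 ± 0.242% in control. This share was between 94.2 and 94.8% in every library.

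*Ppp1ca* and *Ppp1cb*, the alpha and beta genes, were expressed at a few FPKM. *Ppp1ca* (NM_031527) read 6.57, 5.99 and 5.43 FPKM in CSR and 8.00, 8.12 and 6.20 FPKM in control. *Ppp1cb* (NM_013065) read 7.21, 8.19 and 6.63 FPKM in CSR and 7.32, 9.37 and 8.04 FPKM in control. Both overlapped between groups, and their log2 differences of -0.27 and -0.15 had intervals of -0.64 to 0.11 and -0.50 to 0.20.

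The remaining catalytic subunits belong to PP2A, PP4, PP5 and PP6, beside calcineurin. The only PP2A catalytic subunit with a row was the beta one. Its gene *Ppp2cb* (NM_017040) read 22.6, 20.2 and 19.6 FPKM in CSR, against 30.5, 29.1 and 20.5 FPKM in control. *Ppp6c* (NM_133589), the PP6 catalytic subunit, read 18.9, 15.7 and 16.1 FPKM in CSR, against 27.7, 28.6 and 17.8 FPKM in control. In both, control libraries 1 and 2 lay above every CSR library, whereas control library 3 lay inside the CSR range. The log2 differences were -0.33 for *Ppp2cb* (interval -0.74 to 0.08) and -0.50 for *Ppp6c* (interval -0.98 to -0.01), with adjusted p-values of 0.403 and 0.372 by limma. *Ppp5c* (NM_031729), a phosphatase that carries its own targeting repeats and binds HSP90, was steady at 7.06 ± 0.745 FPKM in CSR and 7.36 ± 0.288 FPKM in control (SD, n = 3 each), with a log2 difference of -0.06 and an interval of -0.36 to 0.25.

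*Ppp6c* was the single member that passed in any of the fits that left out 1 library each. Without control library 3, its log2 difference was -0.71 and it passed with an adjusted p of 0.0389 by limma, in a fit that called 259 transcripts, or 4.58% of those tested. It was then the 1 called member of 37. The control libraries left in that fit, 1 and 2, have sample codes that differ only in the last digit, and whether they share a source is not given in the sources used here. With these counted as 1 library, the log2 difference of *Ppp6c* was -0.39 with an adjusted p of 0.696 by limma, and over all alternatives other than leaving out control library 3 its adjusted p ran from 0.330 to 0.696. Control library 3 was the control library nearest to the CSR mean in 22 of 37 members, or 59.5%, and in 55.5% of all tested transcripts. The summed elongating spermatid markers of this library lay inside the CSR range, as given above, *Prm1* among them was near 0 in the other control libraries, and their part in these values was not tested.

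**Figure D3:**
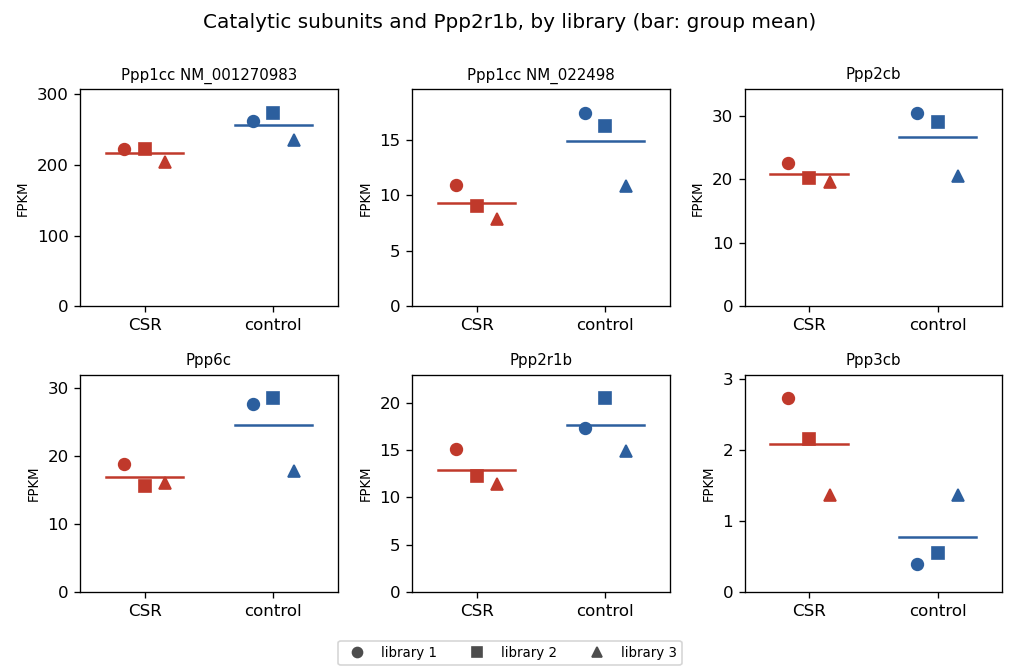
FPKM by library, on axes that start at 0, for both *Ppp1cc* transcripts, *Ppp2cb*, *Ppp6c*, the scaffold *Ppp2r1b* and *Ppp3cb*, with CSR on the left, control on the right and a bar at each group mean. Control library 3 (triangle) lies below the other control libraries in all panels but *Ppp3cb*, where it lies above them.

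Among PP1 regulators, the most abundant were *Ppp1r2* and *Ppp1r36*, and both differed little between groups. *Ppp1r2* (NM_138823) encodes inhibitor-2, which binds the PP1 catalytic subunit. It read 47.3, 49.4 and 53.7 FPKM in CSR and 46.6, 46.7 and 44.7 FPKM in control. The groups did not overlap, but the log2 difference was 0.12 with an interval of -0.08 to 0.32. *Ppp1r36* (NM_001013944), a PP1 regulatory subunit, read 43.1, 42.6 and 41.1 FPKM in CSR and 44.4, 48.6 and 43.7 FPKM in control, again without overlap, and its log2 difference was -0.11 with an interval of -0.31 to 0.09.

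The paralogs *Ppp1r14b* and *Ppp1r14bl* were the next in level. *Ppp1r14b* (NM_172045), of a family of PP1 inhibitors that act when phosphorylated, read 22.7, 24.8 and 26.9 FPKM in CSR and 21.4, 22.2 and 21.6 FPKM in control. *Ppp1r14bl* (NM_001013956), named as like *Ppp1r14b*, read 32.5, 37.6 and 33.6 FPKM in CSR and 24.8, 26.2 and 33.1 FPKM in control. The CSR libraries were the higher ones for *Ppp1r14b* without overlap, while control library 3 reached into the CSR range for *Ppp1r14bl*. The log2 differences were 0.18 (interval -0.05 to 0.42) and 0.30 (interval -0.03 to 0.63), with adjusted p-values of 0.408 and 0.379 by limma. Whether reads of one were assigned to the other by sequence likeness is uncertain.

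*Ppp1r11* (NM_212542), known as inhibitor-3 of PP1, read 20.8, 15.7 and 19.2 FPKM in CSR and 21.8, 18.9 and 27.0 FPKM in control, overlapping between groups. *Ppp1r12a* (NM_053890), the myosin-targeting subunit that directs PP1 to myosin light chain, read 9.80, 8.57 and 6.73 FPKM in CSR and 11.3, 5.17 and 6.86 FPKM in control. Its paralog *Ppp1r12c* (NM_001191946) read 11.5, 10.7 and 13.8 FPKM in CSR and 10.2, 11.2 and 9.81 FPKM in control. For the myosin-targeting genes the spread within a group was wider than the distance between group means for *Ppp1r12a*, and for *Ppp1r12c* the ranges overlapped through control library 2.

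*Ppp1r15b* (NM_001107175) encodes the subunit that directs PP1 to the translation factor eIF2 alpha and is constitutively expressed. It read 2.88, 2.43 and 3.37 FPKM in CSR and 3.82, 4.30 and 3.38 FPKM in control. All CSR values were lower, although the closest pair was 3.373 FPKM in CSR library 3 and 3.376 FPKM in control library 3, and the adjusted p by limma was 0.420. *Ppp1r21* (NM_001271305) was likewise lower in every CSR library, at 4.27 ± 0.241 FPKM in CSR and 5.07 ± 0.518 FPKM in control (SD, n = 3 each), with a log2 difference of -0.20 and an interval of -0.55 to 0.15.

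The nuclear PP1 inhibitor *Ppp1r8* (NM_001107911), which is also linked to splicing, had 3.81 ± 0.308 FPKM in CSR and 3.79 ± 0.570 FPKM in control (SD, n = 3 each), with an interval of -0.38 to 0.41 for the log2 difference. *Ppp1r37* (NM_001107482), a PP1 regulatory subunit, had 12.2 ± 0.867 FPKM in CSR and 11.7 ± 1.54 FPKM in control. *Ppp1r35* (NM_001109451), a centriole protein, had 3.16 ± 0.965 FPKM in CSR and 3.10 ± 0.955 FPKM in control. None of these separated the groups, nor did *Ppp1r16a* (NM_001130566), of the myosin phosphatase targeting family, at 6.92 ± 1.87 FPKM in CSR and 8.12 ± 0.751 FPKM in control. *Ppp1r2l1* (NM_001017476), named as like *Ppp1r2*, read 1.82, 0 and 1.77 FPKM in CSR and 1.02, 1.69 and 1.41 FPKM in control.

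Of the PP2A scaffold genes, the beta gene was the higher one. *Ppp2r1b* (NM_001025418) read 15.1, 12.2 and 11.4 FPKM in CSR and 17.4, 20.5 and 14.9 FPKM in control. The CSR libraries were lower except that control library 3 lay just under CSR library 1. The log2 difference was -0.42 with an interval of -0.81 to -0.02 and an adjusted p of 0.372 by limma. *Ppp2r1a* (NM_057140), the alpha scaffold, had 6.61 ± 1.42 FPKM in CSR and 6.77 ± 1.35 FPKM in control (SD, n = 3 each). *Ppp2r1b* held 66.3 ± 3.28% of the summed FPKM of both scaffolds in CSR and 72.2 ± 4.38% in control, a difference of -5.84 percentage points (n = 3 each, two-sided exact permutation p = 0.20).

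The PP2A targeting subunits differed widely in level. *Ppp2r3c* (NM_001014196), a B''-type subunit, was the most abundant of them at 62.0, 60.0 and 55.1 FPKM in CSR and 59.7, 50.6 and 61.4 FPKM in control, which overlap, and its log2 difference of 0.05 had an interval of -0.21 to 0.31. *Ppp2r3b* (NM_001139492), of the same type, read 8.76, 12.0 and 15.1 FPKM in CSR and 6.47, 9.42 and 10.2 FPKM in control. *Ppp2r3a* (NM_001012202) was listed at 0 in CSR libraries 2 and 3 and read 1.25 FPKM in CSR library 1, against 1.76, 1.25 and 1.09 FPKM in control. Thus the members of the B'' type ran from near the floor to the top of the family.

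B-type subunits, which bring PP2A to mitotic and other substrates, were uneven. *Ppp2r2a* (NM_053999) read 11.0, 11.1 and 4.83 FPKM in CSR and 13.1, 12.7 and 12.1 FPKM in control. All CSR values were lower, but CSR library 3 stood far below the others of its group, and the log2 difference of -0.52 had an interval of -1.25 to 0.21. *Ppp2r2d* (NM_144746) read 27.6, 30.9 and 24.3 FPKM in CSR, against 44.4, 33.4 and 6.30 FPKM in control. *Ppp2r2b*, represented by the non-coding transcript NR_073588, was listed at 0 in CSR libraries 1 and 3 and read 3.82 FPKM in CSR library 2, against 4.35, 3.14 and 2.49 FPKM in control. A listed 0 may stand for a failed estimate, and the fitted difference of *Ppp2r2b* rests on such values.

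The B'-type subunits were near the floor. *Ppp2r5a* (NM_001107891) read 0, 0 and 1.55 FPKM in CSR and 1.07, 1.49 and 0.214 FPKM in control. *Ppp2r5c* (NM_001191112) read 1.28, 1.54 and 0 FPKM in CSR and 1.51, 0.251 and 0.826 FPKM in control. Over the whole family, 7 of 40 transcripts, or 17.5%, were listed at 0 in at least 1 library, against 29.7% of all transcripts. Members at 0 numbered 4, 4 and 5 in CSR libraries 1 to 3 and 0, 2 and 2 in control libraries 1 to 3. Zeros were also more frequent in CSR over the whole table. Of all 7016 transcripts, 1183, 1000 and 1415 were at 0 in CSR libraries 1 to 3, against 330, 275 and 423 in control libraries. No member was at 0 in all libraries of one group and above 0 in all of the other.

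For calcineurin, the calcium- and calmodulin-dependent phosphatase, most catalytic A subunit FPKM came from the gamma gene, although not in every library. The share of *Ppp3cc* in the summed FPKM of the 3 catalytic genes was 39.0, 90.3 and 89.4% in CSR libraries and 74.9, 96.4 and 61.3% in control libraries. The catalytic gene *Ppp3cc* (gamma, NM_134367) read 1.75, 20.2 and 11.5 FPKM in CSR and 3.76, 14.9 and 2.18 FPKM in control. The highest library of each group exceeded the lowest by 11.5-fold in CSR and 6.85-fold in control, so the groups overlapped over nearly their whole range, and the interval of the log2 difference ran from -1.70 to 2.77. *Ppp3cb* (beta, NM_017042) read 2.73, 2.16 and 1.37 FPKM in CSR and 0.400, 0.552 and 1.37 FPKM in control. The groups did not overlap only because CSR library 3, at 1.374 FPKM, lay above control library 3, at 1.372 FPKM, and the log2 difference of 0.81 had an interval of 0.06 to 1.56 and an adjusted p of 0.367 by limma. *Ppp3ca* (alpha, NM_017041) was listed at 0 in all libraries but control library 1, which read 0.861 FPKM, and was not tested.

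The calcineurin B genes encode the calcium-binding subunit, and *Ppp3r2* exceeded *Ppp3r1* in 5 of 6 libraries. *Ppp3r2* (NM_021701) read 74.1, 59.7 and 69.8 FPKM in CSR, against 19.1, 143 and 2.78 FPKM in control. The CSR libraries were close together, while the control libraries spanned 51.5-fold, with 1 above and 2 below every CSR library. The log2 difference of 1.63 had an interval of -1.38 to 4.63 and an adjusted p of 0.512 by limma, and it was 0.35 without control library 3 and 2.98 without control library 2. *Ppp3r1* (NM_017309) read 4.17, 2.38 and 3.00 FPKM in CSR and 3.01, 2.52 and 3.71 FPKM in control. The share of *Ppp3r2* in their sum was 94.7, 96.2 and 95.9% in CSR libraries and 86.4, 98.3 and 42.8% in control libraries.

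The start regions of *Ppp1cc* and of the calcineurin B pair are shown because these genes stand at the top of the family (*Ppp1cc*, *Ppp3r2*) or form a pair with unlike levels. The sequences are from RefSeq (GRCr8), 5′ to 3′ on the gene's strand, from 250 bases before to 50 bases after the annotated start, and capitals mark CG dinucleotides. They lie at chr12:40061252-40061551 (minus strand), chr14:95769596-95769895 (plus strand) and chr5:68823333-68823632 (minus strand).
Ppp1cc: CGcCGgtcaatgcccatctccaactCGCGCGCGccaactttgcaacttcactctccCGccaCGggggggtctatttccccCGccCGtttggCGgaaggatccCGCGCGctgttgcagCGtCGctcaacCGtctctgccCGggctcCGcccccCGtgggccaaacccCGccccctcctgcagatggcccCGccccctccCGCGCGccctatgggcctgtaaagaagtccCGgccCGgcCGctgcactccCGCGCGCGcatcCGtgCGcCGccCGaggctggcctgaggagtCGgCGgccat
Ppp3r1: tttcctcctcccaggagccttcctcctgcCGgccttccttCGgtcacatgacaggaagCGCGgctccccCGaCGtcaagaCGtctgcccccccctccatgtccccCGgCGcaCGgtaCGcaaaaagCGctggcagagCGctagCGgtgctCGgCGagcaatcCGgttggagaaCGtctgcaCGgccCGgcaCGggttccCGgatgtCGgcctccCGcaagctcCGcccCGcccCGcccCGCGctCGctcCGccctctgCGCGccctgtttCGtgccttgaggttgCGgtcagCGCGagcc
Ppp3r2: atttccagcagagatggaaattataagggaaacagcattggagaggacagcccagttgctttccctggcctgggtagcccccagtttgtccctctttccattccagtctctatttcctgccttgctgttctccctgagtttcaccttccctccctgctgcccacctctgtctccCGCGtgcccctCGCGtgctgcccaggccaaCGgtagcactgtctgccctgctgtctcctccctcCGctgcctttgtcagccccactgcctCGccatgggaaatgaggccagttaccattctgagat

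The *Ppp1cc* window holds 38 CG dinucleotides and has a GC content of 72.3%, that of *Ppp3r1* holds 37 at 70.3%, and that of *Ppp3r2* holds 7 at 57.3%. The more abundant of the calcineurin B genes thus has the CG-poor window, whereas the most abundant gene of the family has a CG-rich one. Over the 33 promoter entries found for 31 members, the median was 25 CG dinucleotides, against 21 for the 5790 entries of genes in the expression table and 7 for all 33469 entries. Methylation of these windows was not analysed here.

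The cAMP response element TGACGTCA, to which the spermatid activator CREM and its relatives bind, was searched because CREM acts in spermatids. The *Crem* transcripts with a row were low here, with means over the libraries of 1.09 and 1.93 FPKM. The full element was present in the promoters of 3 members, 9.09% of the 33 entries, against 3.89% of entries of genes in the expression table and 1.83% of all entries. The half-site TGACG, read on both strands and contained in the full element, was present in 48.5% of member entries, 35.3% of entries of genes in the expression table and 21.2% of all entries. The sets differ in CG content, and the half-site holds a CG. The 3 members with the full element were *Ppp1r12c*, *Ppp1r2l1* and *Ppp2r2d*, whose means over the libraries were 11.2, 1.28 and 27.8 FPKM, so its presence did not go with 1 level. They are shown with the element in capitals and 30 bases on each side (RefSeq, GRCr8), at chr1:78362829-78362896 (plus strand), chr10:55123490-55123557 (minus strand) and chr1:203095487-203095554 (plus strand), where the element begins 69, 205 and 65 bases before the start.
Ppp1r12c: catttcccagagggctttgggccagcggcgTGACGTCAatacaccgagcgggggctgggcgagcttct
Ppp1r2l1: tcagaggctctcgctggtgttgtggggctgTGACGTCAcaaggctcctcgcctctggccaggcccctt
Ppp2r2d: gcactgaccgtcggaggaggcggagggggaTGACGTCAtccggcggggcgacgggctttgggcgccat

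PP4 was represented by its catalytic subunit and 1 regulator, both with a wide spread. *Ppp4c* (NM_134359) read 7.71, 19.9 and 19.4 FPKM in CSR and 17.6, 6.13 and 3.54 FPKM in control. *Ppp4r3b* (NM_001108367), a PP4 targeting subunit, read 9.32, 9.03 and 7.51 FPKM in CSR and 1.54, 8.12 and 11.0 FPKM in control. Neither separated the groups, and the intervals of their log2 differences ran from -0.58 to 2.33 and from -0.85 to 1.95.

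Some members spread widely between libraries of 1 group. In 6 of 37 tested members, or 16.2%, FPKM + 1 spanned 4-fold or more within a group, against 9.99% of all tested transcripts, a limit chosen after the values were seen. These were *Ppp3r2*, *Ppp3cc*, *Ppp2r2d*, *Ppp4c*, *Ppp4r3b* and *Ppp2r2b*, the last through its listed zeros in CSR. *Ppp1r14a* (NM_130403), a PP1 inhibitor of smooth muscle, was not tested because it reached 1 FPKM in only 2 libraries. It read 0.449, 8.96 and 0.557 FPKM in CSR and 0.154, 7.33 and 0.207 FPKM in control, so that library 2 of each group stood alone. *Ppp1r16b* (NM_001191072), likewise untested, read 0.968 FPKM in CSR library 2 and 0.153 FPKM in control library 1 and was listed at 0 in the others.

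**Figure D4:**
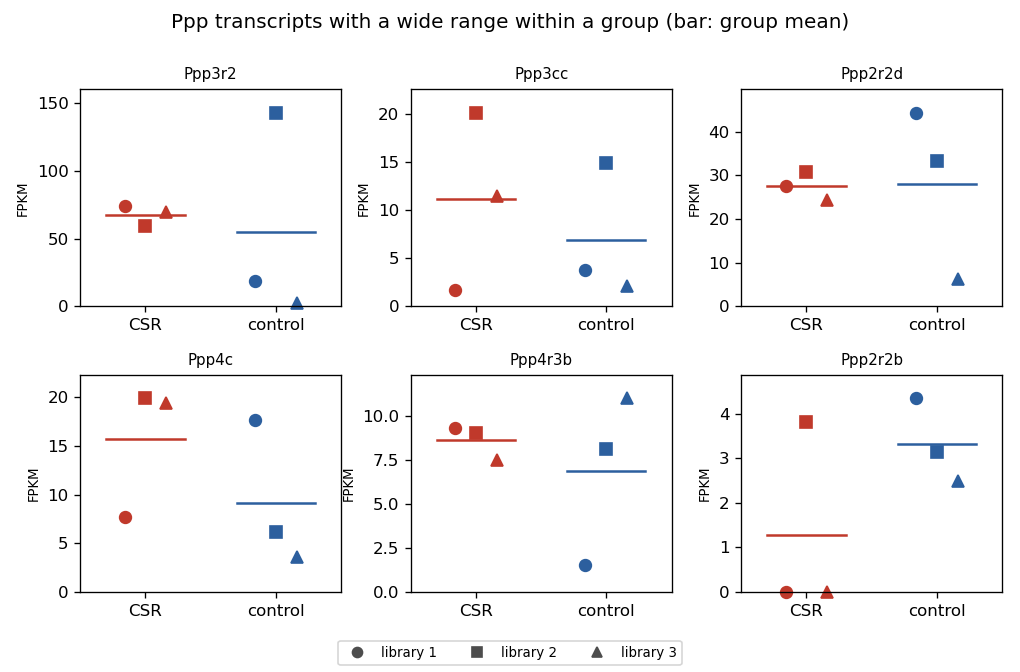
FPKM by library, on axes that start at 0, for the 6 tested members whose FPKM + 1 spanned 4-fold or more within a group, with CSR on the left, control on the right and a bar at each group mean. In *Ppp3r2*, control library 2 stands at 143 FPKM and control library 3 at 2.78 FPKM, while the CSR libraries lie close together; in *Ppp4c*, CSR library 1 stands at 7.71 FPKM below the other CSR libraries.

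At the other end, 6 of 37 members, or 16.2%, had a coefficient of variation under 10% over all 6 libraries, against 13.0% of all tested transcripts. They were *Ppp1r36* (5.81%), *Ppp1r2* (6.55%), *Ppp5c* (7.35%), *Ppp2r3c* (7.62%), *Ppp1r14b* (9.36%) and *Ppp1r37* (9.63%). The median coefficient was 21.9% for the tested members and 25.0% for all tested transcripts. Hence the family held both near-constant and unstable transcripts at high level, with *Ppp2r3c* and *Ppp3r2* next to each other in mean level.

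Partners of these phosphatases that carry other names were followed, together with other families of serine/threonine phosphatase. The list held 102 symbols, of which 52 had rows and 47 transcripts were tested. The other families made up 19 symbols and 9 tested transcripts, and all listed genes are called partners below. No listed transcript was called by limma, and 5 of 47 (10.6%, against 13.2% of all) had an unadjusted p under 0.05. Of these, 4 were higher and 1 lower in CSR. The median log2 difference was -0.10, against -0.06 for all. *Arpp19* (NM_031660), which inhibits PP2A with a B-type subunit at mitotic and meiotic entry, read 16.1, 17.5 and 21.5 FPKM in CSR and 10.8, 11.9 and 15.5 FPKM in control. Its relative *Ensa* (NM_001033974) read 5.61, 4.86 and 4.23 FPKM in CSR and 2.31, 3.63 and 3.13 FPKM in control. The groups did not overlap in either, with log2 differences of 0.50 and 0.56 and an adjusted p of 0.363 each by limma. The other *Ensa* transcript, NM_021842, had a log2 difference of 0.55 with an interval of -0.17 to 1.26, and the PP2A inhibitor genes *Anp32a* and *Anp32e* had differences of -0.78 (interval -2.31 to 0.76) and -0.10 (interval -0.50 to 0.30).

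The other partners with the smallest p were *Ppm1b*, *Cib1* and *Strn3*. *Ppm1b* (NM_001270619), a metal-dependent phosphatase of another family, read 6.31, 4.41 and 4.90 FPKM in CSR and 3.31, 0.227 and 0.151 FPKM in control. Another *Ppm1b* transcript read 12.8, 0 and 0 FPKM in CSR and 0.726, 0.839 and 0.243 FPKM in control, and overlapped. A further *Ppm1b* transcript read 3.57, 3.895 and 0.714 FPKM in CSR and 0.146, 0.504 and 0.210 FPKM in control, without overlap. Neither of these was tested, and how reads were divided among the transcripts is uncertain. *Cib1* (NM_031145), a calcium-binding protein needed for spermatogenesis in mice, read 9.27, 8.54 and 17.1 FPKM in CSR and 5.79, 6.04 and 7.16 FPKM in control. *Strn3* (NM_001029897), a striatin scaffold that binds PP2A, read 0, 1.87 and 1.08 FPKM in CSR and 3.27, 2.79 and 2.47 FPKM in control. *Ppm1b* NM_001270619, *Cib1* and *Strn3* each separated the groups without passing after adjustment.

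Abundant partners included a chaperone gene and germ cell proteins. *Hsp90aa1* (NM_175761), which binds PP5, had 232 ± 15.9 FPKM in CSR and 239 ± 2.44 FPKM in control (SD, n = 3 each). *Spz1* (NM_001024297), a spermatogenic transcription factor, had 219 ± 14.6 FPKM in CSR and 238 ± 16.9 FPKM in control. *Ccdc181* (NM_001014131), a sperm flagellar protein, had 162 ± 3.71 FPKM in CSR and 153 ± 11.0 FPKM in control, and *Calm3* (NM_012518) read 131, 135 and 136 FPKM in CSR and 108, 295 and 138 FPKM in control. None of these separated the groups.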

How the data were processed

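The authors deposited FPKM values for RefSeq transcripts of poly(A) RNA from 3 CSR and 3 control testis libraries; the tools named in the submitters' processing notes are HISAT2, StringTie and Trimmomatic, with build rn6. How the deposited transcripts were selected, and tool versions, is not given in the sources used here. Depth is unknown, which limits what can be said of low transcripts. Accessions were matched to the RefSeq gene table of GRCr8: 6911 matched and 105 did not.

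The 5657 transcripts that reached 1 FPKM in 3 or more libraries were fitted on log2(FPKM + 1) by limma 3.58.1 (R 4.3.3), letting the prior variance follow the mean level. The log scale understates changes of low transcripts. The adjusted p threshold was 0.05. The fit was checked on simulated data. The simulation drew independent noise for each transcript, so it did not cover listed zeros or shifts shared by transcripts of a library. Shares were tested by exact permutation. The methylation tables were not analysed here. Members, lists and tests were chosen with earlier results of these data known.

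Members given with values were the 10 with the smallest p, the 10 with the highest mean, all catalytic subunits and genes with known germ cell roles; the others are given because the family is small, after their values were seen. Partners given are the 5 with the smallest p and the 5 with the highest mean, of which 1 is not reported here.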

Additional observations from a re-analysis of the deposited data

How the results depend on the processing

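The count of 0 members called by limma (5 at an unadjusted p under 0.05 in the reported fit) was also 0 under 8 changes of pseudocount, filter, scaling, variance model, block or library count, and leaving out single libraries gave 0 to 1 called members, the 1 being *Ppp6c* without control library 3. The median log2 fold change of the members was -0.03, and -0.14 (without CSR library 1) to -0.04 with single libraries left out, with -0.12 without control library 1; its sign turned, to 0.02, both with quantile normalization and among transcripts above 0 in all libraries. Partner calls were 0 to 1 in those fits: *Ywhaz* without CSR library 1, *Lcmt1* without CSR library 2 and *Wbp11* without control library 3. The 25 called transcripts of the whole table became 11 with a pseudocount of 0.1, 16 among transcripts above 0 in all libraries, 77 without the variance trend, 7 with control libraries 1 and 2, whose sample codes differ only in the last digit, counted as 1, and 4 (without control library 2) to 259 (without control library 3) with single libraries left out; the cause was not tested. With the replicate number as a block, 0 transcripts were called. Correlations of deviations between same-numbered libraries were 0.0323, 0.00899 and 0.0418, and those of all pairs ran from -0.0642 to 0.0418. CSR libraries 1 and 3 correlated best with their own number, whereas CSR library 2 correlated better with control library 1 (0.0345). Values this small do not settle whether same-numbered libraries were paired.

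The log2 fold change of *Ppp2r3c* turned to -0.03 with quantile normalization. With single libraries left out it ran from -0.04 (without control library 2) to 0.10, that of *Ppp1r12a* from -0.08 (without control library 2) to 0.41, that of *Ppp2r2d* from -0.47 (without control library 3) to 0.84 and that of *Ppp3cc* from -0.08 (without CSR library 2) to 1.39. None of these was called in any fit; the cause was not tested. The 2-against-3 fits assume that both groups share 1 spread.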

Other observations

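Wide swings between libraries of 1 group were also seen in the partner list, chosen for mention after their values were seen. FPKM + 1 spanned 4-fold or more within a group in 9 of 47 tested partners, or 19.1%, against 9.99% of all tested transcripts. *Spata33* (NM_001106195), which links calcineurin to sperm mitochondria in mice, read 10.02, 10.01 and 184 FPKM in CSR and 122, 142 and 6.21 FPKM in control. *Ptpa* (NM_001108577), an activator of PP2A, read 82.3, 1.06 and 66.4 FPKM in CSR and 82.4, 88.2 and 10.6 FPKM in control. *Sh3glb1* (NM_001011929) read 146, 151 and 9.91 FPKM in CSR and 168, 155 and 144 FPKM in control. CSR library 2 and control library 3 were low in both *Spata33* and *Ptpa*, CSR library 1 was low in *Spata33* alone, and CSR library 3 was low in *Sh3glb1* alone, whose log2 difference was -1.32 with an interval of -3.81 to 1.17. Other transcripts of these 3 genes were not analysed here.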
